A study of Mus musculus with 20 samples.

Results

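The peaks of 4 antibodies in wild-type (WT) mouse embryonic fibroblasts were merged into 378700 regions on chromosomes 1 to 19, and each region was classed by the combination of antibodies found in it. A region is a run of peaks, drawn from 6 peak lists, in which neighbouring peaks overlap by at least 1 bp. CAP-D3 and CAP-H2, with 1 library each, counted wherever they had a peak. H3K27me3 and TFIIIC, with 2 libraries each, counted only where both libraries had a peak. By this rule 150599 regions carried at least 1 antibody and fell into 15 combinations, every combination that 4 antibodies allow. The other 228101 regions held peaks of only 1 library of H3K27me3, of TFIIIC or of each, and carried no antibody. All 12 lists of the series, merged in the same way, gave 496693 regions.

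The data are chromatin immunoprecipitation followed by sequencing (ChIP-seq), which maps where a protein or a histone mark lies along DNA. The cells were fibroblasts of E13.5 embryos of the C57BL/6 strain, used at passage 4 while proliferating. Wild-type cells and cells of the genotype Rb1L/L (RbL) were treated alike, and the series title asks how pRb, the product of Rb1, brings condensin II to promoters. The 20 samples comprise 12 immunoprecipitated libraries and 8 inputs, and each genotype had 2 libraries of H3K27me3, 2 of TFIIIC and 1 each of CAP-D3 and CAP-H2. For H3K27me3, CAP-D3 and CAP-H2, cells were fixed with 2 mM of the long-armed crosslinker EGS and then with 1% formaldehyde, and for TFIIIC with 1% formaldehyde alone. Chromatin was sheared to mostly 400 bp or less in all groups. A combination of TFIIIC with another antibody therefore joins chromatin fixed in different ways. The labels do not say whether libraries of a group came from separate cultures, so the spread between them may be technical or between cultures. The WT libraries 1 and 2 differed in peaks on chromosome X, with 106 and 3034 for H3K27me3 and 2456 and 8291 for TFIIIC. Whether their cells differed in sex was not tested. Regions are named by mm9 position, without genes, since no mm9 annotation was used here, and the fibroblast label was not checked against marker genes.

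Condensin II is a ring-shaped complex of SMC proteins that compacts and organises chromosomes and stays in the nucleus throughout the cell cycle. CAP-D3, a HEAT-repeat protein, and CAP-H2, the kleisin that closes the ring, are both subunits of condensin II and not of condensin I. TFIIIC recognises promoter elements inside tRNA genes, where it recruits TFIIIB and RNA polymerase III, and it also occupies sites without the polymerase. H3K27me3 is set by Polycomb repressive complex 2 and often forms broad domains over silent developmental genes. pRb has been reported to bind condensin II through the cleft that the L allele changes.

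The lists differed widely in length, which bears on every count below. On the autosomes they held 24634 and 42944 peaks for H3K27me3, 195239 and 230951 for TFIIIC, 17192 for CAP-D3 and 42174 for CAP-H2. Read depth is unknown for all of them. The score that the authors gave each peak began at 50 to 50.4 in the 6 lists, and in the CAP-D3 list 12.6% of peaks had a score of 3100 or more, against 0.03% to 2.80% in the others. A score of 3100 was a common tie. Whether scores above it mark stronger peaks was not tested, so percentiles and leading regions at that level have no firm order. Of regions with an H3K27me3 peak in either library, 22.2% (11034 of 49728) had one in both, and of those with TFIIIC, 32.6% (100496 of 308390). H3K27me3 library 1 had the shorter list, and 54.0% of its regions were shared with library 2, whose own regions were shared in 27.4%.

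Most regions carried a single antibody. There were 135516 regions with 1 antibody, 11964 with 2, 3024 with 3 and 95 with all 4, so that 15083 regions, 10.0% of those that carried any, held 2 or more. TFIIIC alone was the combination with the most regions (92138), followed by CAP-H2 alone (27988), H3K27me3 alone (9191) and CAP-D3 alone (6199). This order rests on the lists and the replicate rule: at 17192 top-scoring peaks per list there were 10764 regions of CAP-H2 alone, 9928 of CAP-D3 alone, 6806 of TFIIIC alone and 6032 of H3K27me3 alone. TFIIIC alone numbered 214824 without TFIIIC library 1 and 180502 without library 2, and H3K27me3 alone 38675 without H3K27me3 library 1 and 21953 without library 2. Of the combinations of 2 or more, CAP-D3 + CAP-H2 had 6014 regions, TFIIIC + CAP-H2 3770 and TFIIIC + CAP-D3 + CAP-H2 2808. The 7 combinations of H3K27me3 with another antibody held from 37 to 941 regions each. With each list limited to those 17192 peaks, the length of the CAP-D3 list, 6855 regions held 2 or more antibodies, and when a peak in either library sufficed, 30861.

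**Figure D1:**
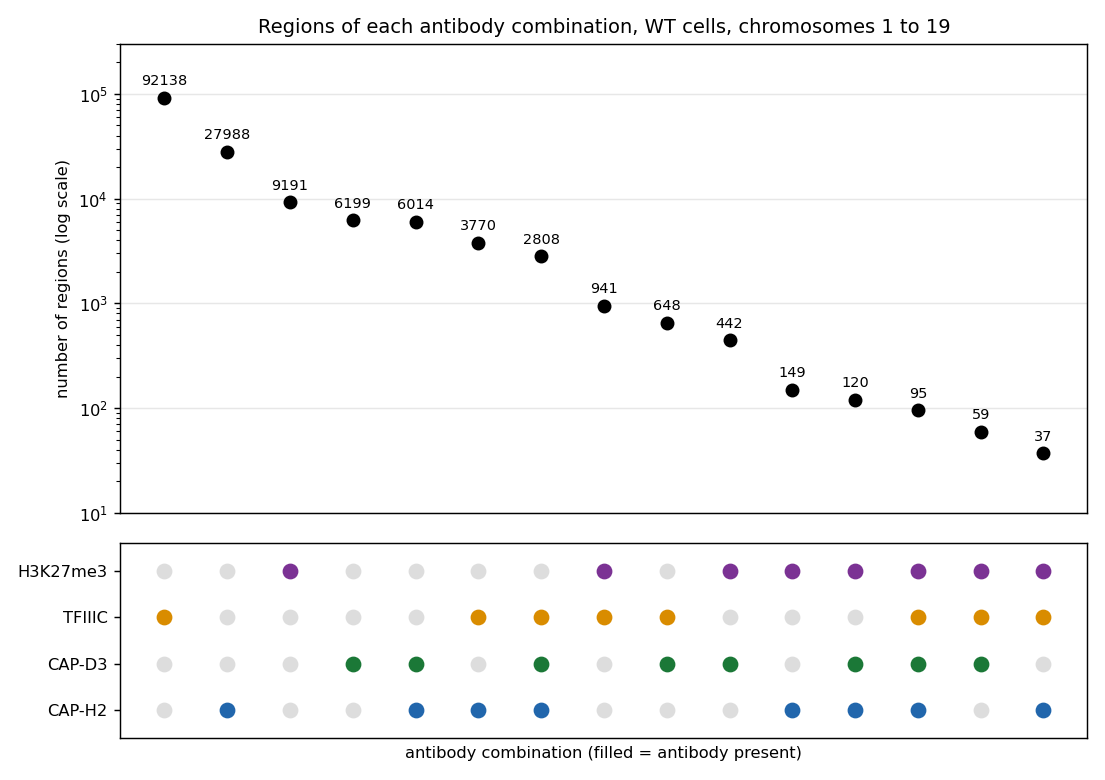
Number of merged regions (log scale, points with their counts) for each of the 15 antibody combinations in WT cells, with filled dots below marking the antibodies present. The counts run from 92138 for TFIIIC alone to 37 for H3K27me3 + TFIIIC + CAP-H2, and the 6 combinations at the right all hold H3K27me3 with condensin II.

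The antibodies differed in how often they occurred without another. TFIIIC was alone at 91.7% of its 100496 regions (95% exact binomial interval 91.5 to 91.9), H3K27me3 at 83.3% of 11034 (82.6 to 84.0), CAP-H2 at 68.3% of 40981 (67.8 to 68.7) and CAP-D3 at 37.8% of 16385 (37.1 to 38.6). Binomial intervals, here and below, reflect counting error and no other error. Regions with CAP-D3 alone were the narrowest, with a median of 539 bp, and their CAP-D3 scores lay at a median of the 34.3 percentile among all CAP-D3 regions. CAP-H2 alone had a median width of 888 bp and a median percentile of 42.5, TFIIIC alone 980 bp and 49.9, and H3K27me3 alone 1414 bp and 46.8.

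Some strong sites nevertheless carried only 1 antibody. The leading CAP-D3 region without another antibody lay on chr16:93883677-93884637, with a CAP-D3 score of 3233.06, and the RbL lists also had CAP-D3 alone there. The next lay on chr7:104519536-104520583 (score 3225), where the RbL lists had CAP-D3 and CAP-H2. CAP-H2 alone was led by chr13:74345402-74346927 (score 3166) and chr4:147818089-147819513 (score 3150), both of them CAP-H2 alone in RbL too. The latter also had a TFIIIC peak in library 1 only (score 90.9). For TFIIIC, both leading regions, chr8:14306286-14307833 and chr10:7235899-7237457, had scores of 3100 in both libraries, and at the latter the RbL lists added CAP-H2. The former also had an H3K27me3 peak in library 2 only (score 132). H3K27me3 alone was led by chr1:75445171-75448467 and chr2:163743188-163746770, each with 3100 in both libraries. Each also had a TFIIIC peak in library 1 only (scores 194 and 283), above the median of 172 in that list. The widest region of H3K27me3 alone, on chr14:63853458-63891794, spanned 38337 bp with 7 H3K27me3 peaks of library 1 and 1 of library 2. In RbL that region also had CAP-D3.

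The condensin II subunits often shared regions with each other. CAP-H2 was present at 55.2% of CAP-D3 regions (95% exact binomial interval 54.4 to 55.9), where it was present at 10.8% of all merged regions. In the other direction, CAP-D3 was present at 22.1% of CAP-H2 regions (21.7 to 22.5), against 4.33% of all merged regions. TFIIIC, counted by a single library as the subunits are, was present at 32.5% and 30.9% of CAP-D3 regions and at 24.5% of CAP-H2 regions in each library. By raw share, the other subunit was thus more frequent than TFIIIC at CAP-D3 regions and not at CAP-H2 regions. The TFIIIC lists are far longer than those of the subunits. Inside CAP-H2 peaks, the density of CAP-D3 midpoints was 28.5 times that along the autosomes, and that of TFIIIC midpoints 2.19 and 1.77 times. Inside CAP-D3 peaks it was 32.8 times for CAP-H2, and 3.10 and 2.24 times for TFIIIC. Both subunits were present at 9037 regions, and at 6032 with equal numbers of top-scoring peaks. Both subunits come from a single library each and share fixation and input, and their part in this overlap was not tested. Regions of CAP-D3 + CAP-H2, with neither H3K27me3 nor TFIIIC by the rule, had a median width of 1304.5 bp, and the midpoints of their strongest CAP-D3 and CAP-H2 peaks lay a median of 151.5 bp apart, within 200 bp in 61.2%. Their CAP-D3 scores had a median percentile of 57.1, against 34.3 for CAP-D3 alone, and their CAP-H2 scores one of 69.7, against 42.5 for CAP-H2 alone.

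The leading region of CAP-D3 + CAP-H2, chr8:112301738-112303690, had scores of 3228 for CAP-D3 and 3100 for CAP-H2, and a TFIIIC peak in library 2 only (score 618). Next came chr17:68337911-68339228, with scores of 3164 and 1138. The widest, chr8:126124313-126148572, held 14 CAP-D3 and 6 CAP-H2 peaks in 24260 bp, and an H3K27me3 peak in library 2 only (score 615). It adjoins the widest region of H3K27me3 + CAP-D3 + CAP-H2, chr8:126061171-126124309, where 28 CAP-D3 peaks and 10 CAP-H2 peaks lay in 63139 bp beside a single H3K27me3 peak per library (scores 3100 and 111). The RbL lists gave CAP-D3 + CAP-H2 at both. CAP-D3 and CAP-H2 peaks thus ran through both neighbouring regions, and the classes of these regions differ by a single H3K27me3 peak of library 1.

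TFIIIC accompanied condensin II more often where both subunits were present than where 1 was. At the 9037 regions with both, 45.8% had a peak of TFIIIC library 1, 42.6% of library 2 and 32.1% of both (95% exact binomial interval 31.2 to 33.1). At the 31944 regions with CAP-H2 and no CAP-D3, the values were 18.5%, 19.4% and 11.9% (11.6 to 12.3). At the 7348 regions with CAP-D3 and no CAP-H2, they were 16.2%, 16.5% and 9.62% (8.96 to 10.3). The gap between regions with both subunits and those with CAP-H2 only was 27.3 percentage points in library 1 and 23.2 in library 2, several times the difference between the libraries, and 20.2 where both libraries had to have a peak. Over all merged regions, TFIIIC was present at 26.5%, a base made up largely of TFIIIC peaks themselves: the share at regions with both subunits lay above it, and the shares with 1 subunit lay below. In a bulk preparation, antibodies on the same DNA molecule and on different cells' copies of a locus cannot be told apart. With 17192 top-scoring peaks per list, which keeps few of the TFIIIC peaks, the gap fell to 3.09 percentage points, and when a peak in either TFIIIC library sufficed it was 30.4.

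Peak strength and width moved with these classes, and the gap was present within each class of either. CAP-D3 peaks were divided into 4 equal classes by score. Here a peak was counted with another list only where it overlapped a peak of that list itself, not where both lay in a region. In the highest class (scores of 1155 or more) 53.5% and 48.5% of peaks with CAP-H2 had a peak of TFIIIC libraries 1 and 2, against 29.4% and 25.9% of those without. In the lowest class the shares were 25.3% and 22.1% with CAP-H2, and 11.9% and 12.7% without. CAP-H2 peaks gave the same order: 53.2% and 49.2% with CAP-D3 against 27.9% and 28.7% without in the highest class, and 30.5% and 25.3% against 14.7% and 16.5% in the lowest. Among CAP-D3 peaks in the widest of 4 classes, 55.1% and 50.8% of those with CAP-H2 had TFIIIC, and 33.4% and 28.4% of those without. The share with TFIIIC was thus higher where the other subunit was present in each score class. It was lower in the lowest class than in the highest in both groups, and level over the lowest 2 classes for CAP-D3 peaks without CAP-H2.

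**Figure D2:**
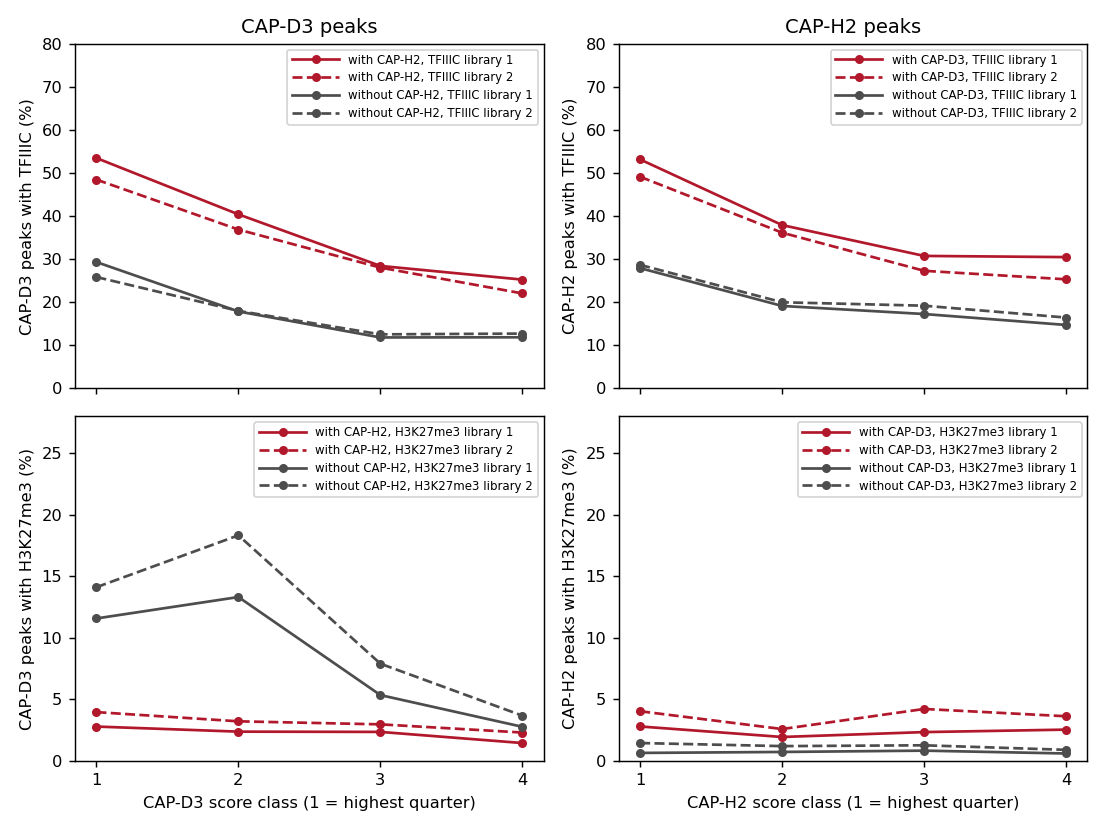
Share of CAP-D3 peaks (left) and CAP-H2 peaks (right) that overlapped a peak of each TFIIIC library (top) or H3K27me3 library (bottom), in percent, by score class. Red marks peaks that overlapped a peak of the other condensin II subunit, and grey those that did not. Solid and dashed lines are libraries 1 and 2. Red lies above grey in 3 panels, and in the lower left panel it lies below, where CAP-D3 peaks without CAP-H2 in the second class had H3K27me3 in 13.3% and 18.3%.

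TFIIIC with a single subunit formed 648 regions for CAP-D3 and 3770 for CAP-H2. Without TFIIIC library 1 these were 1039 and 6035, without library 2 they were 1057 and 5706, and at equal numbers of top-scoring peaks 92 and 197. The regions with CAP-H2 had a median of 1884 bp and the CAP-H2 and TFIIIC midpoints lay a median of 551.75 bp (library 1) and 585 bp (library 2) apart. For CAP-D3 these values were 1443 bp, and 391.75 and 418.5 bp. The libraries of TFIIIC itself were closer in the same regions, at medians of 255.25 and 150.5 bp. So the strongest condensin II peak and the strongest TFIIIC peak of a region usually had different centres. Their midpoints lay within 200 bp in 19.1% and 17.9% of the regions with CAP-H2, and in 29.3% and 26.9% of those with CAP-D3. That peaks of both antibodies overlap in such regions follows largely from the merging rule.

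The leading TFIIIC + CAP-H2 region, chr15:77582530-77602852, held 7 CAP-H2 peaks and 7 and 12 TFIIIC peaks in 20323 bp. Beside it, chr15:77603282-77674052 was the widest region of all named here, 70771 bp with 35 peaks of each TFIIIC library, 4 of CAP-D3 and 6 of CAP-H2, and it was classed as TFIIIC + CAP-D3 + CAP-H2. Next among TFIIIC + CAP-H2 came chr13:55594553-55605192 (scores 1056 and 1039 for TFIIIC, 3100 for CAP-H2). TFIIIC + CAP-D3 was led by chr8:19853016-19859403, with 3100 in all 3 lists, and chr4:146030629-146035769 (scores 1475 and 1876 for TFIIIC, 3100 for CAP-D3). All of these except the 70771 bp region had the same combination in RbL, and that one gained H3K27me3.

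The 2808 regions with TFIIIC and both subunits but no H3K27me3 held strong condensin II peaks. Their median percentile was 71.3 for CAP-D3 and 83.6 for CAP-H2, above the 57.1 and 69.7 of CAP-D3 + CAP-H2, while that of TFIIIC was 53.3, near the 49.9 of TFIIIC alone. Median scores were 982 for CAP-D3 and 424 for CAP-H2, against 481 and 248 where TFIIIC was not counted. In 90.0% of these regions the antibodies shared at least 1 base, where a peak of either library stood for TFIIIC. The CAP-D3 and CAP-H2 midpoints were a median of 254.25 bp apart, whereas CAP-D3 and TFIIIC were 524.5 and 575 bp apart and CAP-H2 and TFIIIC 513.5 and 548.25 bp. Leading regions were chr5:38949902-38954229, with scores of 606 and 1797 for TFIIIC, 3177 for CAP-D3 and 833 for CAP-H2, and chr10:80638025-80649006, at 3100 for TFIIIC in both libraries, CAP-D3 and CAP-H2, with a weak H3K27me3 peak in library 2 only (score 79.9).

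H3K27me3 lay mostly apart from condensin II, and where they met the subunit was more often CAP-D3. H3K27me3 was present at 2.91% of all merged regions and at 6.82% of regions with CAP-D3 and no CAP-H2 (95% exact binomial interval 6.25 to 7.42). It was present at 2.38% of those with both subunits (2.07 to 2.71) and at 0.582% of those with CAP-H2 and no CAP-D3 (0.502 to 0.672). By library, the shares were 7.68% and 9.06% for CAP-D3 only, 3.10% and 4.03% for both, and 0.751% and 1.13% for CAP-H2 only. The order of the 3 classes was thus the same in both libraries, and the differences between CAP-D3 only and CAP-H2 only, 6.92 and 7.93 percentage points, exceeded the difference between the libraries. Between both subunits and CAP-H2 only, the gap was 1.80 percentage points. Without the 75 regions that had a peak in all 12 lists, it was 0.98.

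CAP-D3 peaks with H3K27me3, counted by direct overlap of peaks, were not confined to weak ones. Without CAP-H2, 10.3% of CAP-D3 peaks in the highest score class and 11.96% in the second had H3K27me3 in both libraries, against 4.54% and 1.85% in the lower classes. With CAP-H2, the values from the highest to the lowest class were 2.13%, 1.64%, 1.23% and 0.908%. The 442 regions of H3K27me3 + CAP-D3 had high H3K27me3 scores, with medians of 1044 and 1708 against 308 and 353 for H3K27me3 alone and a median percentile of 83.9 against 46.8. Their CAP-D3 median percentile was 58.5, against 34.3 for CAP-D3 alone. The 149 regions of H3K27me3 + CAP-H2 had an H3K27me3 percentile of 77.3 and a CAP-H2 percentile of 44.0, close to the 42.5 of CAP-H2 alone, and numbered 306 without H3K27me3 library 1.

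Seen from H3K27me3, CAP-D3 peaks were dense inside its blocks and CAP-H2 peaks were not. A block is a stretch covered by peaks of both H3K27me3 libraries, and all blocks together covered 14.8 Mb. CAP-D3 peak midpoints occurred at 31.6 per Mb of block and 6.95 per Mb of the autosomes, a ratio of 4.55 (467 peaks, 95% interval 4.15 to 4.98). For CAP-H2 they occurred at 14.2 and 17.1 per Mb, a ratio of 0.830 (209 peaks, 0.722 to 0.9502). Using 1 H3K27me3 library, the CAP-D3 ratio was 2.65 without library 1 and 3.496 without library 2. The CAP-H2 ratio then was 0.621 and 0.747, and it was 1.03 at equal numbers of top-scoring peaks, so its side of 1 depended on that choice. For TFIIIC the ratios were 0.965 in library 1 and 1.14 in library 2, which lie on either side of 1.

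Block width divided the antibodies further. CAP-D3 density was 21.3 per Mb in blocks of up to 500 bp, 26.6 in those up to 1000 bp, 40.1 up to 2000 bp, 36.4 up to 5000 bp and 30.8 in wider ones. CAP-H2 density stayed between 9.84 and 18.3 per Mb. TFIIIC density fell at each step, from 115 to 29.8 per Mb in library 1 and from 160 to 34.7 in library 2. The widest class holds 268 blocks with 62 CAP-D3, 22 CAP-H2, and 60 and 70 TFIIIC midpoints. Of those blocks, 19.4% had a CAP-D3 peak, 7.46% a CAP-H2 peak, and 13.8% and 18.7% a TFIIIC peak. The CAP-D3 midpoints in them lay a median of 2260.5 bp from the nearer edge, and 6.45% lay within 500 bp of it. CAP-H2 midpoints were alike, at 2168 bp and 4.55%. Of the TFIIIC midpoints, 20% and 14.3% lay within 500 bp, and all these shares rest on few midpoints.

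**Figure D3:**
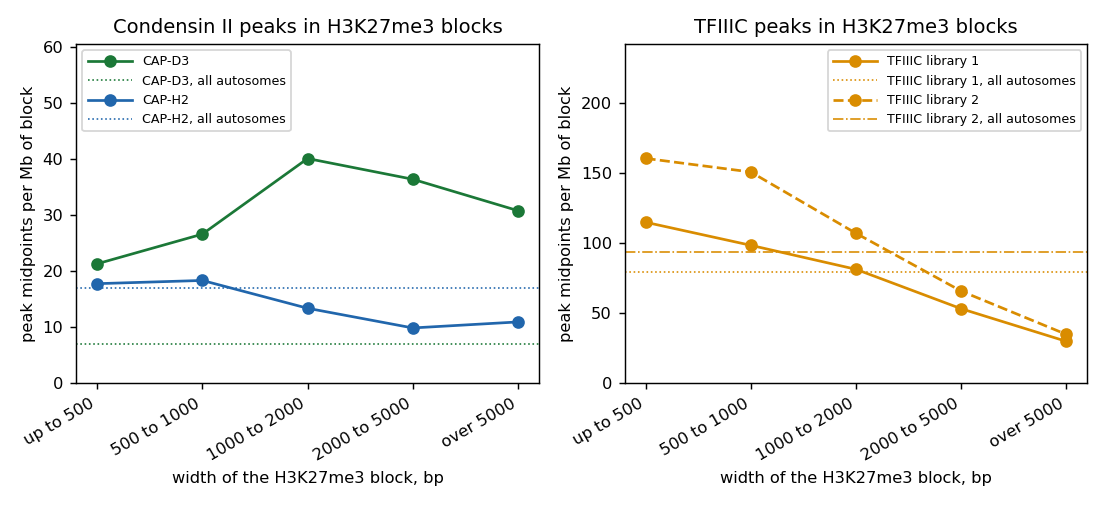
Peak midpoints per Mb of H3K27me3 block by block width (bp), for CAP-D3 and CAP-H2 (left) and the TFIIIC libraries (right); horizontal lines give the density along all autosomes. CAP-D3 lies above its line of 6.95 per Mb in every width class, and both TFIIIC libraries fall below their lines of 79.0 and 93.4 per Mb in blocks wider than 2000 bp.

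Leading H3K27me3 + CAP-D3 regions were chr13:56320560-56326162, with scores of 2826 and 3100 for H3K27me3 and 3138 for CAP-D3, and chr3:17950218-17956783, at 3100 in all 3 lists. The widest, chr15:102745983-102805099, spanned 59117 bp with 11 and 2 H3K27me3 peaks and 1 CAP-D3 peak (score 534), and the RbL lists added CAP-H2. H3K27me3 + CAP-H2 was led by chr11:96127846-96136261, with scores of 1920 and 2257 for H3K27me3 and 3100 for CAP-H2, and chr4:116984794-116998185 (2205, 3100 and 551). Both of these regions also had a TFIIIC peak in library 1 only.

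H3K27me3 and TFIIIC shared 1132 regions, 941 of them without condensin II. This is 10.3% of H3K27me3 regions (95% exact binomial interval 9.70 to 10.8) and 1.13% of TFIIIC regions (1.06 to 1.19). Both lie below the 26.5% and 2.91% over all merged regions, but that base is made up largely of TFIIIC peaks themselves. Set against densities along the autosomes, TFIIIC midpoints inside H3K27me3 blocks had ratios of 0.965 and 1.14. For H3K27me3 midpoints inside bases covered by both TFIIIC libraries, the ratios were 1.01 and 0.823. The libraries of each pair lay on either side of 1. With a single TFIIIC library, 18.8% (library 1) and 26.2% (library 2) of H3K27me3 regions had a peak. The number without condensin II depended on the rule: it was 2187 without H3K27me3 library 1, 2527 without TFIIIC library 1, 1744 without TFIIIC library 2, 512 where only bases covered by both libraries stood for an antibody, and 17 at equal numbers of top-scoring peaks. Within the 941 regions, the H3K27me3 and TFIIIC midpoints lay a median of 574 bp (libraries 1) and 603 bp (libraries 2) apart. Leading regions were chr17:36195648-36207206, with 4 peaks of each TFIIIC library (scores 995 and 2426) and H3K27me3 at 3100 in both, and chr4:149183654-149185585 (1394 and 2269 for TFIIIC, 2794 and 2523 for H3K27me3).

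The 3 combinations of H3K27me3 with 2 other antibodies were small, and in many of their regions the antibodies lay side by side. For shared bases, a peak of either library stood for H3K27me3 or TFIIIC. All antibodies shared a base in 30 of 59 regions of H3K27me3 + TFIIIC + CAP-D3 (50.8%), in 14 of 37 of H3K27me3 + TFIIIC + CAP-H2 (37.8%) and in 82 of 120 of H3K27me3 + CAP-D3 + CAP-H2 (68.3%). In the combinations of 2 antibodies it was 98.7% to 100%, which follows largely from the merging rule and gives no baseline for 3 antibodies. Median widths were 5027, 4024 and 3764.5 bp. The counts depended on single libraries: H3K27me3 + TFIIIC + CAP-D3 had 139 regions without TFIIIC library 1 and 91 without library 2, H3K27me3 + TFIIIC + CAP-H2 had 65 without TFIIIC library 1 and 57 without H3K27me3 library 1, and H3K27me3 + CAP-D3 + CAP-H2 had 205 without H3K27me3 library 1. At chr5:137727496-137732477 and at chr8:97217062-97222318, the leading regions of H3K27me3 + TFIIIC + CAP-D3, no base was covered by all 3. The former had scores of 679 and 1557 for H3K27me3, 519 and 477 for TFIIIC and 1219 for CAP-D3. By contrast, the 1266 bp region on chr9:105721121-105722386 had H3K27me3 (629 and 578), TFIIIC (640 and 375) and CAP-H2 (854) over a common 830 bp. The leading H3K27me3 + CAP-D3 + CAP-H2 region, chr6:103598582-103599791, had a common 609 bp, with scores of 3100 and 1192 for H3K27me3, 3100 for CAP-D3 and 563 for CAP-H2.

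All 4 antibodies met at 95 regions, and 75 of these (78.9%) had a peak in all 12 lists of the series. The 95 regions were narrower than the combinations of 3, with a median of 1541 bp, and their scores were high in every list. Median percentiles were 95.04 for TFIIIC, 95.4 for CAP-H2, 78.1 for H3K27me3 and 75.3 for CAP-D3. The midpoints of different antibodies lay close, at medians of 107.5 bp for CAP-D3 and CAP-H2, 147 and 149 bp for CAP-D3 and TFIIIC, and 146 and 145 bp for CAP-D3 and H3K27me3. In the 75 regions found in all 12 lists, median scores were 1781 and 762 for H3K27me3, 808 and 1397 for TFIIIC, 1447 for CAP-D3 and 1413 for CAP-H2. In the other 20 they were 381 and 442, 221 and 426, 409 and 133, and the percentiles lay between 38.9 and 56.2. The high scores of this combination thus came with regions called in every list, whatever the antibody, fixation and genotype, and whether the antibodies bind there was not tested.

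The 5 leading regions of this combination were all among the 75, with a score of 3100 or more in each WT list. They lay on chr3:5859859-5861296, chr11:108872443-108873949, chr16:11143371-11144921, chr9:56070356-56072263 and chr17:39979418-39986132. The last of these was 6715 bp wide, with 1 peak per list and 6061 bp covered by all 4 antibodies. The widest region of the combination was of another kind: chr2:74483420-74539808 spanned 56389 bp with 16 and 4 H3K27me3 peaks at up to 3100, single TFIIIC peaks with scores of 64.9 and 338, 1 CAP-D3 peak (625) and 3 CAP-H2 peaks (up to 145), and no base was common to all. The number of regions with all 4 was 42 at equal numbers of top-scoring peaks, 224 with gaps of up to 1000 bp joined, 273 with a peak in either library and 149 without H3K27me3 library 1.

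Regions with H3K27me3 and condensin II were wide, except those with all 4 antibodies (median 1541 bp). Median widths were 3433.5 bp for H3K27me3 + CAP-D3 and 3198 bp for H3K27me3 + CAP-H2, against 1884 bp or less for combinations of 2 without H3K27me3. Regions of over 5 kb made up 30.5% of H3K27me3 + CAP-D3, 26.8% of H3K27me3 + CAP-H2 and 50.8% of H3K27me3 + TFIIIC + CAP-D3. For H3K27me3 alone this was 5.86%, and for CAP-D3 + CAP-H2 it was 0.399%. Part of this follows from the rule, since merging widens a region with each antibody it holds. The bases tell the antibodies apart: in H3K27me3 + CAP-D3 regions, H3K27me3 peaks covered 97.2% of bases and CAP-D3 peaks 14.2%, whereas in CAP-D3 + CAP-H2 regions CAP-D3 covered 59.3% and CAP-H2 85.8%. In TFIIIC + CAP-H2 regions, TFIIIC covered 76.1% and CAP-H2 57.4%.

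**Figure D4:**
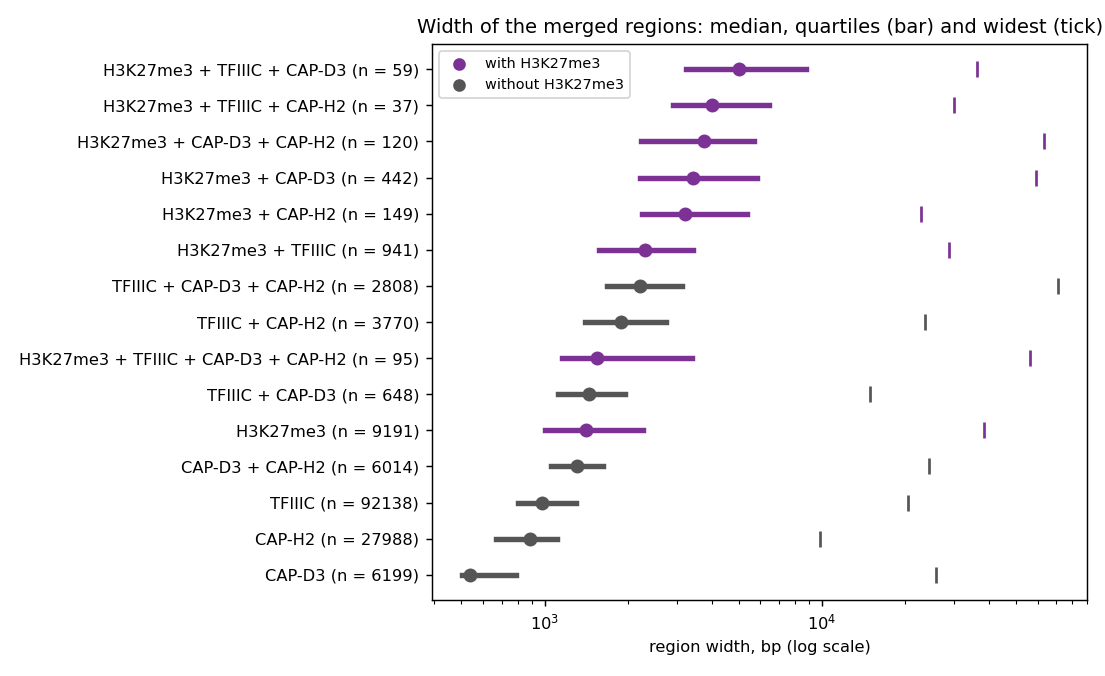
Width of the merged regions in bp (log scale) for each combination: point, median; bar, lower to upper quartile; tick, widest region; purple, with H3K27me3. The 5 combinations of H3K27me3 with condensin II but not with all 4 antibodies have medians of 3198 to 5027 bp, and CAP-D3 alone has 539 bp.

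Regions of a combination differed in how they clustered along the chromosomes. The nearest region of the same combination lay a median of 3.05 kb away for H3K27me3 alone and 4.32 kb for TFIIIC alone, and within 10 kb for 65.2% and 68.7%. For CAP-H2 alone the median was 11.5 kb, for TFIIIC + CAP-H2 22.4 kb, for CAP-D3 + CAP-H2 68.9 kb and for CAP-D3 alone 114 kb; these distances move with the number of regions. TFIIIC + CAP-H2, with 3770 regions, had another of its kind within 10 kb in 38.1%, and CAP-D3 + CAP-H2, with 6014, in 11.5%. Seen from regions without TFIIIC, a TFIIIC region lay within 10 kb of 61.6% of CAP-D3 + CAP-H2, 51.6% of CAP-H2 alone and 51.2% of CAP-D3 alone. H3K27me3 alone, without either subunit, gave 50.1%, close to the values for a single subunit. An H3K27me3 region lay within 10 kb of 9.40% of CAP-D3 alone, 8.43% of CAP-D3 + CAP-H2 and 4.60% of CAP-H2 alone, the same order of CAP-D3 only, both and CAP-H2 only as within regions.

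Chromosome 11 had the highest density for 11 of the 15 combinations. It held 6.76 regions of H3K27me3 alone per Mb against 3.72 over all autosomes, 48.1 of TFIIIC alone against 37.3, 2.91 of TFIIIC + CAP-H2 against 1.52, and 1.99 of TFIIIC + CAP-D3 + CAP-H2 against 1.14. Some of its leads were narrow and rest on few regions. H3K27me3 + TFIIIC + CAP-H2 had 4 regions on chromosome 11 and 5 on chromosome 7, with 0.0328 per Mb on each. H3K27me3 + CAP-D3 + CAP-H2 had 10 on chromosome 11 (0.0821 per Mb) and 5 on chromosome 19 (0.0815). Between the densest and the sparsest chromosome, CAP-D3 alone differed by 1.46 times and CAP-H2 alone by 1.44 times. TFIIIC alone was near these at 1.68 times, and CAP-D3 + CAP-H2 gave 1.87 times. H3K27me3 alone gave 3.65 times and TFIIIC + CAP-H2 3.77 times. H3K27me3 + TFIIIC ran from 0.0991 per Mb on chromosome 18 (9 regions) to 0.882 on chromosome 17 (84 regions). Lengths are the reach of the peaks on each chromosome, so these densities include stretches without any peak.

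The RbL lists did not enter the classing and give a separate view of each combination. Over all merged WT regions, an RbL peak was present in 7.21% and 8.77% for H3K27me3 libraries 1 and 2, 54.3% and 55.0% for TFIIIC, 2.97% for CAP-D3 and 8.96% for CAP-H2. RbL CAP-D3 was present at 30.5% of regions with CAP-D3 alone, 49.1% of TFIIIC + CAP-D3, 59.7% of H3K27me3 + CAP-D3, 65.6% of CAP-D3 + CAP-H2 and 80.6% of TFIIIC + CAP-D3 + CAP-H2. For CAP-H2 the share was 66.2% at CAP-H2 alone, 51.7% at H3K27me3 + CAP-H2, 71.1% at TFIIIC + CAP-H2, 88.4% at CAP-D3 + CAP-H2 and 94.98% at TFIIIC + CAP-D3 + CAP-H2. A condensin II subunit was therefore found again more often where the other subunit was present, and CAP-D3 alone least often. Scores moved with this, as the median CAP-D3 percentile was 34.3 for CAP-D3 alone and 71.3 for TFIIIC + CAP-D3 + CAP-H2. Median widths of these regions were 539 and 2214.5 bp, and a wider region is more easily overlapped. Regions of H3K27me3 + CAP-H2 went the other way, with 51.7% at a median of 3198 bp against 66.2% at 888 bp for CAP-H2 alone. The part of scores and widths was not tested.

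H3K27me3 was found again at 81.5% and 88.3% of its regions alone and at 97.1% in both RbL libraries for H3K27me3 + CAP-D3. The latter regions were wider, with a median of 3433.5 bp against 1414 bp, and the part of width was not tested. TFIIIC was found again at 86.0% and 86.3% of TFIIIC alone, 83.7% and 84.3% of TFIIIC + CAP-H2, 72.1% and 73.5% of TFIIIC + CAP-D3, and 68.7% and 66.3% of TFIIIC + CAP-D3 + CAP-H2. Among these 4 combinations without H3K27me3, both RbL libraries gave less where CAP-D3 was present, by more than the libraries differed. With H3K27me3, no such difference showed between H3K27me3 + TFIIIC (81.5% and 81.3%) and the 59 regions of H3K27me3 + TFIIIC + CAP-D3 (78.0% and 81.4%). All 4 antibodies gave 92.6% and 91.6%, but 75 of those 95 regions have a peak in all 12 lists. A peak in both RbL TFIIIC libraries is thus given at the 75, so these shares cannot decide the comparison. The whole combination was the same in RbL at 76.9% of TFIIIC alone, 59.1% of H3K27me3 alone, 57.2% of CAP-H2 alone, 53.9% of CAP-D3 + CAP-H2, 41.9% of TFIIIC + CAP-D3 + CAP-H2 and 18.7% of CAP-D3 alone. Of TFIIIC + CAP-D3 + CAP-H2, 34.3% were CAP-D3 + CAP-H2 in RbL. Of CAP-D3 alone, 52.7% had no RbL peak of any antibody.

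**Figure D5:**
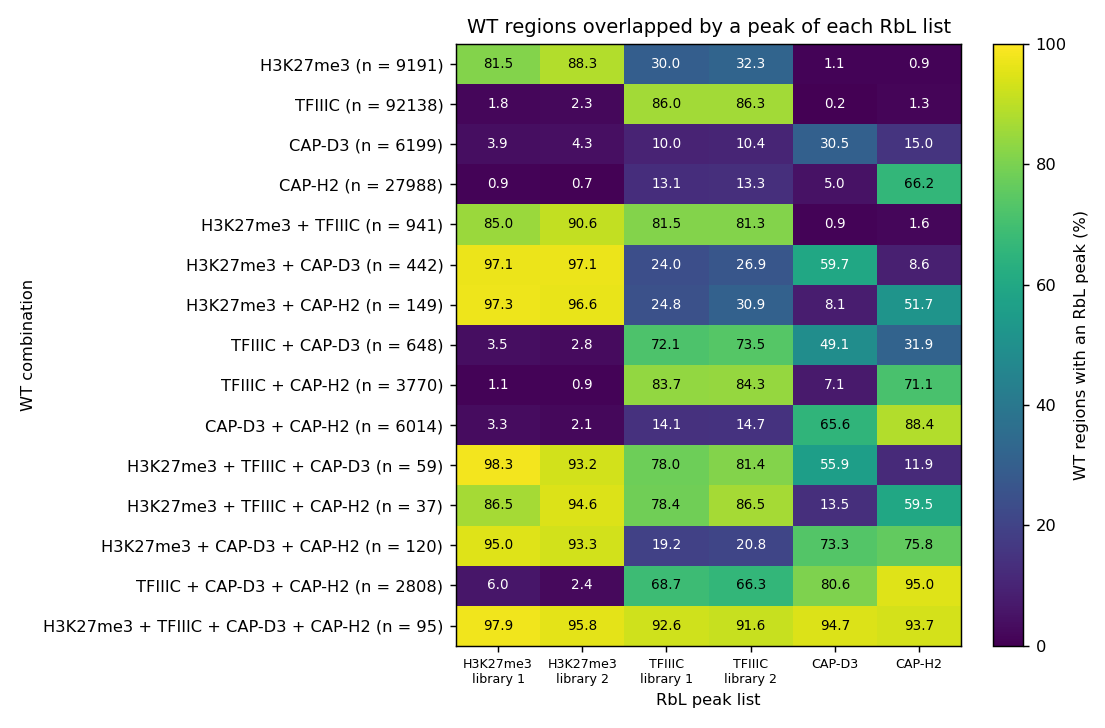
Share of WT regions of each combination (rows, with their number) that an RbL peak overlapped, in percent, for each of the 6 RbL lists (columns). RbL CAP-D3 covers 30.5% of CAP-D3 alone and 80.6% of TFIIIC + CAP-D3 + CAP-H2. All 4 antibodies together give 91.6% or more in every column, where 75 of the 95 regions have a peak in all 12 lists.

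Regions built from the WT condensin II lists alone were also set against the libraries of both genotypes. At 9037 regions with both subunits, the WT TFIIIC libraries 1 and 2 had a peak in 44.6% and 41.4%, and the RbL libraries had one in 29.3% and 29.0%. The means were 43.0 ± 2.28% and 29.2 ± 0.22% (SD, n = 2), and the WT and RbL values did not overlap. At 32970 regions with CAP-H2 only, they were 19.7 ± 0.98% in WT and 21.8 ± 0.17% in RbL, and at 7553 with CAP-D3 only 15.6 ± 0.04% and 14.9 ± 0.48%. H3K27me3 was present at 3.28 ± 0.85% in WT and 4.89 ± 1.41% in RbL where both subunits were, at 8.29 ± 1.79% and 10.2 ± 0.19% for CAP-D3 only, and at 0.934 ± 0.33% and 1.39 ± 0.12% for CAP-H2 only. Each of these 6 comparisons had a two-sided exact permutation p of 0.333 (0.333 after Benjamini-Hochberg adjustment), the smallest that 2 libraries against 2 allow. The regions were chosen in WT cells, the RbL TFIIIC lists are the longer ones, and their part in these differences was not tested.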

How the data were processed

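The 6 peak lists of WT cells were classed, and the 6 of RbL cells were used as a separate readout; the 8 inputs have no list here. The submitters' processing notes name the build mm9, the aligner Bowtie2 2.3.0 and the peak caller MACS 1.4.0rc2; settings are not given in the sources used here. Peaks were called per library. The score of each peak is the authors', deposited without a column name. It depends on depth and input, so it served only to rank, class or filter peaks within a list.

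Members, tables and alternatives were chosen with earlier results of these data known. Sequences outside chromosomes 1 to 19 were left out. Overlap required 1 bp, and coordinates are 1-based. For bases that antibodies share or cover within a region, a peak of either library stood for a replicated antibody. A region's score for an antibody is its highest peak, for replicated antibodies the lower of the libraries' highest, and a percentile ranks it among regions with that antibody. Named regions are the 2 (5 for all 4 antibodies) with the highest minimum percentile over their antibodies, and the widest, of each combination; some were left out. Shares have exact (Clopper-Pearson) 95% intervals, and genotypes were compared by two-sided exact permutation. Shares are counting results over regions and have no test across regions. The classing was tested on simulated peaks, where 2000 of 2000 planted regions got their combination. Python 3.11.15, pandas 2.3.3, numpy 2.4.6 and scipy 1.17.1 were used. Alternatives tried: a score of at least 100, gaps of up to 1000 bp, a common base, other replicate rules, each replicate left out, equal list lengths, all sequences, and leaving out regions found in all 12 lists.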

Additional observations from a re-analysis of the deposited data

Results flagged for a closer look

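Regions with 2 or more antibodies also occurred on chromosome X, which was outside the classing: 87 in all, of which 58 were CAP-D3 + CAP-H2, 10 TFIIIC + CAP-H2 and 8 TFIIIC + CAP-D3, and 3 held all 4 antibodies. The WT libraries stood apart there, with 106 and 3034 H3K27me3 peaks and 2456 and 8291 TFIIIC peaks on X, and on unplaced sequence of Y with 2093 and 148 TFIIIC peaks.

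The difference in TFIIIC share between RbL and WT libraries had opposite signs in 2 classes of condensin II region: -13.8 percentage points with both subunits, where each RbL value was under each WT value, and 2.10 with CAP-H2 only, where each was over. Within a library, the share at regions with both subunits exceeded that at regions with CAP-H2 only by 25.6 and 21.0 percentage points in WT and by 7.68 and 7.13 in RbL, a difference of -15.9 with an exact permutation p of 0.333, the smallest possible with 2 libraries against 2.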

How the results depend on the processing

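In all, 12 alternatives were run. Numbers of regions with 2 or more antibodies, all 4, TFIIIC with both subunits, and H3K27me3 + TFIIIC without condensin II moved by over 1.5 times with a peak in either replicate (30861, 273, 4819 and 11086) and with equal numbers of top-scoring peaks (6855, 42, 253 and 17). Joining gaps gave 224 regions of all 4 and 2232 of H3K27me3 + TFIIIC, bases covered by both replicates gave 512 of the latter, and leaving out regions found in all 12 lists gave 20 of the former. Leaving out 1 replicate gave 15443 to 19325, 112 to 149, 2753 to 3928 and 1287 to 2527.

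The TFIIIC gap between both subunits and CAP-H2 only was 26.1 percentage points with gaps joined, 30.4 with either replicate, 3.09 at equal numbers and 20.2 to 26.95 without 1 replicate. The H3K27me3 gap was 3.04, 3.44 and 1.29 in the same settings, 1.25 with a common base, 1.27 with bases of both replicates, 0.98 without regions found in all 12 lists and 1.78 to 2.78 without 1 replicate. Between CAP-D3 only and CAP-H2 only it was 5.49 at a score of at least 100, 7.95 with gaps joined, 8.62 with either replicate, 5.16 with bases of both replicates, 4.11 at equal numbers and 6.17 to 7.86 without 1 replicate. These 3 gaps kept their sign in every alternative run. Inside H3K27me3 blocks, the CAP-D3 density ratio was 3.904 without regions found in all 12 lists and 2.65 to 3.496 without 1 replicate. That of CAP-H2 was 0.566 and 0.621 to 0.747, and turned to 1.03 at equal numbers. Why these values moved was not tested beyond what each setting removes. Of 180 counts of single combinations under alternatives, 119 stayed within 1.5 times.

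Labels give RbL and WT libraries the same replicate numbers but do not say that a number marks a shared culture or day. Pairing by number as a replicate block left the 6 differences between genotypes as they were (TFIIIC -13.8, -0.64 and 2.10 percentage points and H3K27me3 1.62, 1.89 and 0.45, for both subunits, CAP-D3 only and CAP-H2 only), with an exact permutation p of 0.5 each, the smallest possible. Leaving out 1 library gave -15.4 to -12.2, -0.98 to -0.30 and 1.41 to 2.79 for TFIIIC, and 0.62 to 2.61, 0.62 to 3.15 and 0.22 to 0.69 for H3K27me3. Depth is unknown, so an absent peak may be a site below the threshold of its list.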

Other observations

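The same rule applied to the 6 RbL lists gave 236423 regions with at least 1 antibody, in the same 15 combinations. TFIIIC alone had 173530 regions in RbL and 92138 in WT, H3K27me3 + TFIIIC 4699 and 941, and TFIIIC + CAP-H2 4878 and 3770. TFIIIC + CAP-D3 + CAP-H2 had 1776 in RbL and 2808 in WT, TFIIIC + CAP-D3 454 and 648, and CAP-D3 alone 3271 and 6199. CAP-D3 + CAP-H2 had 6181 and 6014 and CAP-H2 alone 27739 and 27988. These counts rest on lists of different lengths and 1 condensin II library per subunit and genotype, and have no test.

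Among the 228101 WT regions without an antibody by the rule, 113127 held a peak of TFIIIC library 2 only and 78754 of library 1 only, 23158 of H3K27me3 library 2 only and 7221 of library 1 only. RbL TFIIIC libraries 1 and 2 had a peak at 49.1% and 49.9% of them, below the 54.3% and 55.0% over all merged WT regions.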
